A study of Homo sapiens with 12 samples.

Results

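Compact genes are protein-coding genes with little intron sequence, and their reads were followed here in A549 cells depleted of the spliceosome protein RNF113A and treated with Cisplatin. A gene was taken as compact when its name had a single gene row in the Gencode v19 annotation of the study and when its span minus its merged exons came to between 50 and 2000 nt. Of 19708 gene names in that annotation, 19459 had 1 gene row with exons, and 1318 of these were compact. The rule uses gene structure alone and no read count. The other genes comprised 1162 with no intron or less than 50 nt of it, 3772 with over 2000 and up to 10000 nt, 7173 with over 10000 and up to 50000 nt and 6034 with more.

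A549 is an established human lung adenocarcinoma line. All cells of the study were infected with lentivirus and selected with puromycin, and expressed an shRNA, either a control (shControl) or one that targets RNF113A (shRNF113A). Each was left untreated or given 25 µg/ml Cisplatin for 20 h, and each of these 4 conditions had 3 biological replicates per the study's methods, 12 libraries in all. Depletion of RNF113A and any other effect of its shRNA cannot be told apart in these groups.

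Introns are removed from pre-mRNA by the spliceosome, a ribonucleoprotein machine that recognises the donor site at the 5′ end of an intron, the acceptor site at its 3′ end and a branch point between them. RNF113A is a RING finger protein found in activated spliceosomes. Short introns are commonly recognised as a unit across the intron, whereas exons flanked by long introns are commonly recognised across the exon. Genes with few and short introns include many that encode ribosomal, mitochondrial and proteasomal proteins, and many short-lived transcripts that respond quickly to stress. Cisplatin is a platinum drug that crosslinks DNA and obstructs elongating RNA polymerase.

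Intronic reads were the read pairs within a gene's span minus those wholly within its exons, and their ratio to exonic reads is given in percent for each library. Read pairs that cross an exon edge without splicing thus count as intronic. The exons used were those of protein-coding transcripts, so reads on exons of other transcripts of the gene, such as annotated retained-intron forms, fall among the intronic ones. Of the 1318 compact genes, 637 had no genic read in at least 1 library, 41 others had fewer genic than exonic reads in some library, and 257 others averaged under 10 intronic or exonic reads. The remaining 383 entered the test of the ratio, which was fitted on 10975 genes in all. For gene expression 1192 compact genes had a symbol in the count tables and 682 passed the filter on low counts, and 371 were tested for both.

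A compact gene had a median of 984 nt of intron in a span of 2681 nt, with 1587 nt of merged exons and 2 gaps between them. Among the tested ones the median was 1259 nt of intron and 3 gaps. For 185 compact genes, 72 of them tested, part of the non-exonic stretch lay outside the exons, and 33 had no gap between merged exons. Another gene of the annotation overlapped 414 of them, 141 on the same strand and 299 on the opposite one. The 17 genes within the last 50 nt inside the upper limit and the 41 genes within 50 nt outside it had 8 and 9 tested. Upon depletion the median log2 change of the ratio was 0.78 inside and 0.43 outside the limit without Cisplatin, and 0.92 and 1.04 with it. With Cisplatin it was 0.32 inside and −0.05 outside in shControl, and 0.53 and 0.32 in shRNF113A cells.

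Read pairs per library ran from 33859097 to 56071514. The 3 libraries of Cisplatin-treated shRNF113A cells were the smallest, and replicate 3 of Cisplatin-treated shControl cells was the largest. Between 6.21 ± 0.215% and 6.86 ± 0.414% (SD, n = 3) of the counts on the gene's strand fell on compact genes in the 4 conditions. RNF113A itself has no intron and is not compact. It had 19.5 to 20.3 CPM (counts scaled to the library total) in untreated shControl libraries and 15.3 to 16.8 in untreated shRNF113A libraries. With Cisplatin it had 27.7 to 31.5 and 24.3 to 29.9 CPM, so that these groups overlapped. By edgeR's quasi-likelihood test with Benjamini-Hochberg adjustment, used for every adjusted p given here, its depletion fold change was 0.856 (adjusted p = 0.0185). The CPM of the cell type markers were instead scaled to the library total only. Among the epithelial markers KRT8 and KRT18 reached at least 2040 and 1480 CPM in every library. CDH1 had 32.7 to 198 CPM, whereas EPCAM ran from 3.68 to 94.3 and KRT19 from 0.692 to 5.14 CPM. Of the alveolar type 2 markers ABCA3 had 51.6 to 74.5 and NAPSA 1.41 to 4.7 CPM, NKX2-1 had at most 0.617 CPM, and SFTPB and SFTPC stayed at or under 0.109 CPM. PTPRC, PECAM1 and ALB, markers of leukocytes, endothelium and liver, stayed at or under 0.309 CPM. The fibroblast collagen COL1A1 had 3.21 to 35.0 CPM.

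The introns of these genes are short and rich in G and C. The 3239 gaps between merged exons of compact genes had a median length of 253 nt and a median GC content of 58.5%, and 87.3% of them began with GT and ended with AG on hg19. Among the 1412 gaps of tested genes the median was 197 nt, 84.0% had these ends and 326 (23.1%) were no longer than 100 nt. Since the exons of all protein-coding transcripts of a gene were merged, an end of a gap need not be a splice site. Whole introns of 5 genes whose ratio is described further on are shown for their scale and make-up. They are written 5′ to 3′ on the strand of the gene, with the first and last 2 bases in capitals.
RPL10A, gap 2 of 5, 73 nt: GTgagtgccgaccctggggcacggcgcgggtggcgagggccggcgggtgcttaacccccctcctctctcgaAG
SAT1, gap 3 of 4, 90 nt: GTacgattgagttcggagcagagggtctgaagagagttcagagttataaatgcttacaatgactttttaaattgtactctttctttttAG
CYCS, gap 3 of 3, 101 nt: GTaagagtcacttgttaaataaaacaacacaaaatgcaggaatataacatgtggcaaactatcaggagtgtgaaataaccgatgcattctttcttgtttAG
DDAH2, gap 2 of 6, 119 nt: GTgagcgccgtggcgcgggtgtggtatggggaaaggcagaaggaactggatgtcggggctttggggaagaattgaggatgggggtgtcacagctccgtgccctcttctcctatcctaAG
ZFP36, gap 2 of 2, 261 nt: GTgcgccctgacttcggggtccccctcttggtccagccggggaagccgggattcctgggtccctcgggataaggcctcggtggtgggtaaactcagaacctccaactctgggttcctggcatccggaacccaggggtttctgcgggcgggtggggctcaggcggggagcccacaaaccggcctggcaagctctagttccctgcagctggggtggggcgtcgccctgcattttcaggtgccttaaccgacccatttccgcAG

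On hg19 these introns lie at chr6:35436651-35436723, plus strand, chrX:23803547-23803636, plus strand, chr7:25163469-25163569, minus strand, chr6:31696523-31696641, minus strand and chr19:39898122-39898382, plus strand, in the order shown. The RPL10A intron has a GC content of 74.0% and the CYCS intron 33.7%. For introns over 300 nt only the 9 bases across the donor and the 23 across the acceptor are shown, again with the terminal bases of the intron in capitals. Both introns of MCL1 (351 nt at chr1:150550968-150551318, minus strand; 752 nt at chr1:150549968-150550719, minus strand), the single introns of SLC30A1 (chr1:211749632-211751332, minus strand) and MARCKS (chr6:114179024-114180858, plus strand), and an intron of PHPT1 that reappears among the retained introns (chr9:139744590-139744957, plus strand) are given this way. All begin with GT and end with AG.
MCL1, gap 1 of 2: aagGTaagg and tgcatgcttttctttctcAGgca
MCL1, gap 2 of 2: tggGTaagt and ttttcttttttgttttctAGgat
SLC30A1, gap 1 of 1: cagGTgagc and aaatttttatttctttgtAGacc
MARCKS, gap 1 of 1: cagGTaaat and ccgctttctctgccccttAGgag
PHPT1, gap 3 of 4: atgGTgagc and ttcacaaaaaccaccagcAGatg

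Intronic reads of compact genes, summed over genes, were more frequent in depleted than in control cells. In untreated shControl libraries they came to 1.65, 1.63 and 1.57% of exonic reads (1.61 ± 0.0429%, n = 3), and in untreated shRNF113A libraries to 2.27, 2.48 and 2.18% (2.31 ± 0.157%). With Cisplatin the sums were 2.08, 2.07 and 2.58% (2.24 ± 0.292%) in shControl and 3.52, 3.49 and 3.37% (3.46 ± 0.0832%) in shRNF113A libraries. Depleted and control libraries did not overlap at either level of Cisplatin, and untreated shRNF113A and Cisplatin-treated shControl libraries did. The fold between means was 1.43 without Cisplatin and 1.54 with it upon depletion, against 1.35 and 1.84 when summed over all genes. Cisplatin gave 1.39-fold in shControl cells, or 1.28-fold without replicate 3, and 1.5-fold in shRNF113A cells. Read pairs within no gene made up 2.62 to 2.67% in untreated shControl and 2.67 to 2.88% in untreated shRNF113A libraries. With Cisplatin they made up 2.62 to 3.04% and 3.78 to 3.97%, with 3.04% in replicate 3 of shControl. How far the intronic reads follow a wider rise of reads outside exons was not tested.

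**Figure D1:**
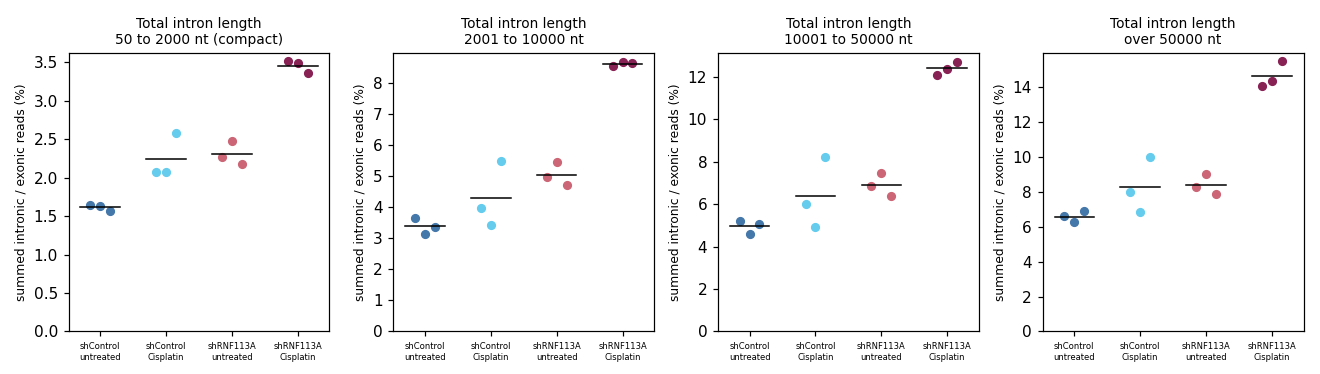
Intronic reads as a percent of exonic reads, summed over genes, in each of the 12 libraries for compact genes and for genes with more intron sequence. Points are libraries, lines are means of the 3 libraries and each panel has its own axis from 0. Compact genes run from 1.57 to 3.52%, the lowest of the classes drawn, with both shRNF113A conditions above the shControl condition of the same treatment.

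Among tested genes, compact ones carried fewer intronic reads per gene than longer ones but more per nucleotide of intron. The median tested compact gene had a ratio of 2.73% in untreated shControl, 3.2% in Cisplatin-treated shControl, 3.97% in untreated shRNF113A and 5.25% in Cisplatin-treated shRNF113A cells. The medians of the other tested genes were 6.62, 8.45, 9.31 and 16.6%. Per length, as intronic reads per nucleotide of intron over exonic reads per nucleotide of exon, the compact medians were 5.28, 5.24, 7.40 and 10.1% and those of the other genes 0.760, 0.996, 1.05 and 1.98%. Read pairs at exon edges weigh more in a short intron, and their part in this per-length level was not tested. The minimum mean of 10 intronic reads also asks for a higher level per nucleotide where the intron is short. The filter thus favours this order among tested genes, and its part was not tested either.

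Without Cisplatin, depletion of RNF113A raised the ratio of 131 of the 383 compact genes (34.2%) and lowered that of 0, against 29.8% higher and 0.164% lower over all 10975 genes tested. At an unadjusted p under 0.05, 195 compact genes passed. The median log2 change was 0.51 (quartiles 0.26 and 0.76) against 0.47 over all genes, and 342 of 383 changes were positive. Counts at an unadjusted p and of positive changes, here and below, have no share of all genes or events beside them. They are not read as particular to compact genes. In 207 (54%) the depleted libraries lay wholly above the controls, against 57.4% of all genes. The count of changed genes fell to 27 without replicate 2 of untreated shRNF113A, to 64 without its replicate 1, and to 40 and 76 without replicates 2 and 3 of untreated shControl. The shares of all genes called in these fits were 3.81, 11.2, 7.6 and 17.2%, in that order. These values have no scaling between intronic and exonic counts. When each library's intronic counts were scaled by TMM on their own, which moved the median of all genes by −0.48, 18 compact genes (4.70%) were higher and 9 (2.35%) lower, against 3.85% and 4.93% of all genes.

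MCL1, an anti-apoptotic BCL2 family member, had ratios of 1.57, 0.810 and 1.25% in untreated shControl and 4.29, 3.54 and 3.63% in untreated shRNF113A libraries. The depleted libraries were all above the controls, and the log2 change was 1.67 ± 0.26 (SE, adjusted p = 0.00125). With intronic counts scaled on their own it was still higher, by 1.19, and passed the test. ZFP36, which binds AU-rich elements and promotes mRNA decay, had 2.25, 1.76 and 2.11% in control and 6.77, 6.70 and 7.89% in depleted libraries. It rose by 1.79 ± 0.24 (adjusted p = 0.000351), again without overlap.

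SLC30A1, a zinc exporter, had 0.142, 0.272 and 0.184% in control and 0.620, 0.556 and 0.623% in depleted libraries, and rose by 1.55 ± 0.39 (adjusted p = 0.0107). MARCKS, an actin-binding protein kinase C substrate, had 0.234, 0.254 and 0.161% against 0.565, 0.733 and 0.459% and rose by 1.41 ± 0.34 (adjusted p = 0.0096). Its call was lost without replicate 2 of untreated shRNF113A (adjusted p = 0.0635). Neither gene's groups overlapped. CYCS, cytochrome c, had 0.0643, 0.0587 and 0.0594% in control and 0.239, 0.0892 and 0.198% in depleted libraries. Its log2 change was 1.5 ± 0.36 (adjusted p = 0.00904), with replicate 2 of the depleted libraries nearest to the controls. In this comparison CYCS did not meet the limits on reads and overlap set for naming the largest changes.

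SLC35B2, which carries the sulfate donor into the Golgi, rose by 1.42 ± 0.27 (adjusted p = 0.00384), from 0.443, 0.489 and 0.319% to 1.03, 1.45 and 0.898%. MARVELD1, a membrane protein whose non-exonic stretch includes 551 nt outside its exons, rose by 1.82 ± 0.46 (adjusted p = 0.0113). DUSP6, a phosphatase of ERK, rose by 1.46 ± 0.43 (adjusted p = 0.0193), a call lost without shControl replicate 2 or 3 or shRNF113A replicate 1. RASSF7, which overlaps a gene on the opposite strand, rose by 1.32 ± 0.41 (adjusted p = 0.0233), a call lost without any of 5 libraries.

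Under Cisplatin, depletion raised the ratio of 254 of 383 compact genes (66.3%) and lowered that of 2 (0.522%), against 84.1% and 0.228% of all genes tested. The share of compact genes that rose was thus below that of all genes. The median log2 change was 0.75 (quartiles 0.42 and 1.04) against 0.97, and 363 of 383 changes were positive. In 265 compact genes (69.2%) the depleted libraries lay wholly above the controls, against 83.3% of all genes. With intronic counts scaled on their own, which moved the median of all genes by −0.99, 20 compact genes (5.22%) were higher and 98 (25.6%) lower, against 12.9% and 15.6% of all genes.

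MCL1, ZFP36, MARCKS, CYCS and SLC30A1 were raised under Cisplatin too. MCL1 had 1.15, 0.834 and 1.96% in shControl and 4.28, 3.22 and 4.43% in shRNF113A libraries (1.64 ± 0.25, adjusted p = 1.59e-05). ZFP36 had 1.68, 1.70 and 2.40% against 6.76, 6.75 and 6.74% (1.81 ± 0.23, adjusted p = 3.14e-06). For both, depleted and control libraries stood apart without overlap. MARCKS went from 0.268, 0.369 and 0.376% to 1.77, 1.31 and 1.87% (2.24 ± 0.31, adjusted p = 6.03e-06). CYCS went from 0.105, 0.0784 and 0.0677% to 0.432, 0.350 and 0.452% (2.29 ± 0.30, adjusted p = 3.86e-06). The log2 change was larger than without Cisplatin in MARCKS, CYCS, SLC30A1 and ZFP36, by least in ZFP36, and not in MCL1. None of these differences passed the test of the interaction.

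Other leading rises included FOSB (1.83 ± 0.33, adjusted p = 5.92e-05), an immediate-early transcription factor. EGR1, another such factor, had a larger change (3.09 ± 0.54, adjusted p = 4.59e-05). In this comparison EGR1 did not meet the limits on reads and overlap set for naming the largest changes. TOR4A, a torsin family ATPase, rose by 2.00 ± 0.32 (adjusted p = 2.62e-05). The ERK phosphatase DUSP7 rose by 1.99 ± 0.46 (adjusted p = 0.000536), and SLC30A1 by 1.72 ± 0.26 (adjusted p = 1.4e-05). PPP1R15A, which directs dephosphorylation of eIF2α, rose by 1.65 (adjusted p = 1.24e-05). FOSB overlaps a gene on the opposite strand. The 2 genes that fell were RPS27, a small-subunit ribosomal protein with near-identical copies elsewhere (−0.71 ± 0.19, adjusted p = 0.00158), and PHPT1, a phosphohistidine phosphatase that overlaps a gene on its own strand (−0.39 ± 0.16, adjusted p = 0.0306). The call for PHPT1 was lost without 5 of the 6 Cisplatin libraries.

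**Figure D2:**
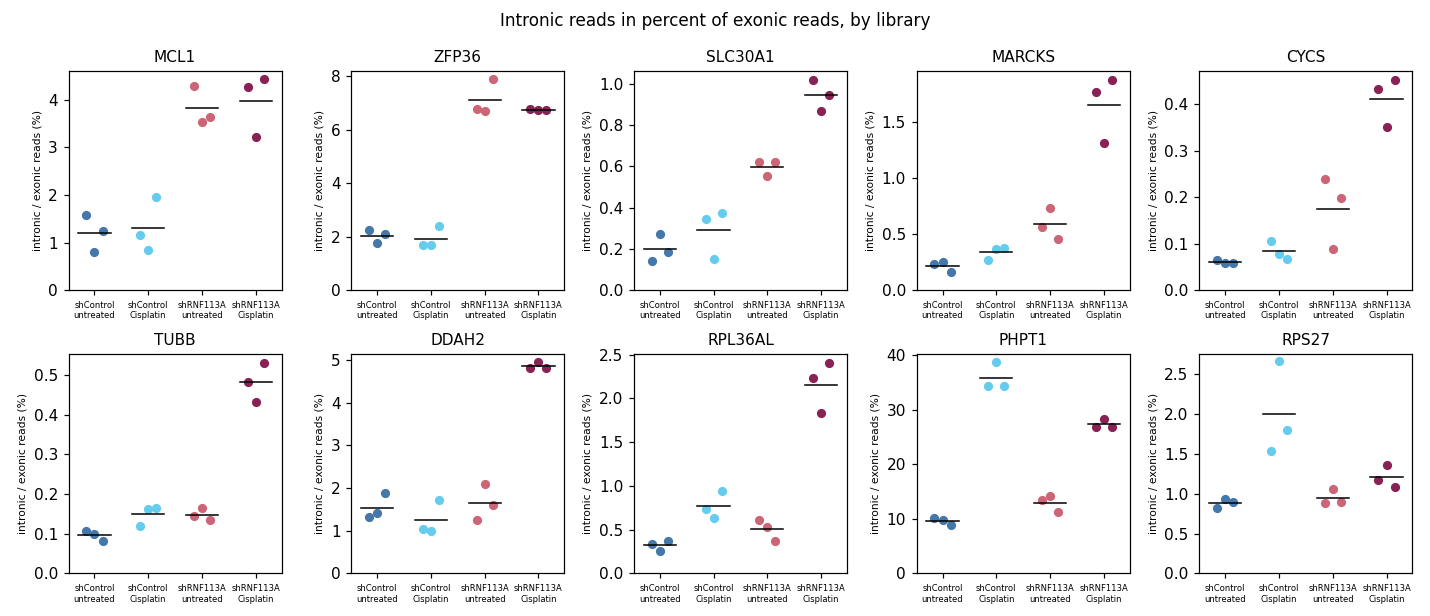
Intronic reads as a percent of exonic reads for 10 named compact genes in each of the 12 libraries, each panel on its own linear axis from 0, with 1 point per library and a line at the mean of the condition. MCL1 and ZFP36 lie higher in shRNF113A than in shControl libraries at both levels of Cisplatin, and PHPT1 is highest in Cisplatin-treated shControl libraries, at 34.3 to 38.7%.

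In shControl cells, Cisplatin raised the ratio of 28 of 383 compact genes (7.31%) and lowered that of 12 (3.13%), against 18.4% and 1.26% of all genes. The median log2 change was 0.13 (quartiles −0.17 and 0.40) against 0.29. The number of changed compact genes was 80 without replicate 2 of Cisplatin-treated shControl, and between 22 and 24 without any single untreated shControl library or without replicate 1 of Cisplatin-treated shControl. Of all genes, 44.1% were called in the first of these fits and 11.9 to 15% in the others. With intronic counts scaled on their own, which moved the median of all genes by −0.24, 15 compact genes (3.92%) were higher and 48 (12.5%) lower, against 16.9% and 9.87% of all genes.

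PHPT1 had ratios of 10.1, 9.83 and 8.95% untreated and 34.4, 38.7 and 34.3% with Cisplatin, and rose by 1.90 ± 0.17 (adjusted p = 2.09e-08). RPL10A, a large-subunit ribosomal protein, had 2.21, 1.71 and 2.11% against 3.70, 4.06 and 4.19% and rose by 0.99 ± 0.16 (adjusted p = 0.000104). Neither showed any overlap between treated and untreated libraries. RPL36AL, a ribosomal protein paralog, rose from 0.342, 0.257 and 0.372% to 0.739, 0.636 and 0.940% (1.25 ± 0.25, adjusted p = 0.000857). RPS27 rose from 0.819, 0.938 and 0.898% to 1.54, 2.66 and 1.80% (1.14 ± 0.19, adjusted p = 0.000123). Reads of these ribosomal genes may be shared with near-identical copies, so their values are uncertain.

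PIM3, a serine/threonine kinase, rose from 1.43, 1.57 and 1.61% to 3.89, 3.49 and 3.86% (1.27 ± 0.26, adjusted p = 0.00121), and SLC35B2 rose by 1.17 (adjusted p = 0.00976). TUBB4B, a beta-tubulin with similar paralogs and an opposite-strand overlap, rose by 0.98 ± 0.19 (adjusted p = 0.000809). MARVELD1 rose by 1.86 ± 0.48 (adjusted p = 0.00805). Those that fell included PPP1R15A (−1.12 ± 0.35, adjusted p = 0.0268) and DTX3, a ubiquitin ligase (−1.04, adjusted p = 0.0377). FOSB fell too (−2.04 ± 0.70, adjusted p = 0.0422). In this comparison FOSB and SLC35B2 did not meet the limits on reads and overlap set for naming the largest changes. LIPT2, a lipoyl transferase, fell from 18.7, 21.1 and 19.6% to 9.30, 8.21 and 7.41% (−1.25 ± 0.36, adjusted p = 0.0182). IQCC fell from 11.1, 13.8 and 11.9% to 5.22, 4.77 and 8.24% (−1.0 ± 0.28, adjusted p = 0.0153). The calls for LIPT2, PPP1R15A, DTX3 and IQCC were lost without some of the libraries.

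NUPR1, a stress-induced chromatin protein, rested on few reads. It had 2, 3 and 3 intronic reads in untreated and 49, 37 and 54 in Cisplatin-treated shControl libraries, and 0 to 4 in every shRNF113A library. It passed the minimum of a mean of 10 intronic reads only through the Cisplatin-treated shControl libraries, so its call, which is 1 of the 28, is not read as a change of the ratio. The call was also lost without any of the untreated shControl libraries and under DESeq2 (adjusted p = 0.283).

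In shRNF113A cells, Cisplatin raised the ratio of 135 of 383 compact genes (35.2%) and lowered that of 17 (4.44%), against 67.1% and 0.738% of all genes. The median log2 change was 0.35 against 0.76, with 288 positive. With intronic counts scaled on their own, which moved the median of all genes by −0.75, 17 (4.44%) were higher and 165 (43.1%) lower, against 23.9% and 20.4% of all genes. The untreated and treated shRNF113A libraries here also enter the depletion comparisons, so these results are not independent of each other.

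RPL36AL rose by 2.09 ± 0.22 (adjusted p = 1.23e-07), from 0.609, 0.536 and 0.370% to 2.23, 1.83 and 2.40%. TUBB, a beta-tubulin, rose by 1.70 ± 0.17 (adjusted p = 6.7e-08), from 0.146, 0.164 and 0.135% to 0.484, 0.432 and 0.531%. COPS6, a subunit of the COP9 signalosome, rose by 1.54 ± 0.20 (adjusted p = 1.79e-06), from 1.67, 1.90 and 1.79% to 5.17, 5.10 and 5.33%. Treated and untreated libraries stood apart for all of these. Further rises were in C12orf57, part of whose non-exonic stretch lies outside its exons (1.73 ± 0.24, adjusted p = 5.03e-06), CHMP2A of the ESCRT-III complex (1.62, adjusted p = 5.83e-06), ATP5E of the ATP synthase (1.48, adjusted p = 4.14e-05) and CYCS (1.23 ± 0.28, adjusted p = 0.000837). ATP5E overlaps a gene on the opposite strand.

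EGR1 (−1.58 ± 0.34, adjusted p = 0.00043), the chemokine IL8 (−1.27, adjusted p = 0.0103), METRN, a secreted neurotrophic protein (−0.91 ± 0.22, adjusted p = 0.00148), and FOSB (−0.83, adjusted p = 0.00995) fell. SAT1, the polyamine acetyltransferase, had ratios of 45.4, 45.5 and 45.1% in untreated and 31.5, 32.5 and 21.5% in treated shRNF113A libraries, and fell by 0.69 (SE 0.20, adjusted p = 0.0041). Its shControl libraries had 35.4, 29.2 and 32.1% untreated and 26.0, 17.9 and 31.2% with Cisplatin. The depletion change of SAT1 without Cisplatin was 0.50 and did not pass (adjusted p = 0.0576).

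The change with Cisplatin differed between shRNF113A and shControl cells in 2 compact genes (0.522%), both with a larger change in depleted cells, against 3.62% of all genes. At an unadjusted p under 0.05, 39 compact genes passed, and the median interaction was 0.21 against 0.47. DDAH2, which hydrolyses methylated arginines and overlaps a gene on its own strand, had 1.33, 1.41 and 1.88% in untreated and 1.04, 0.990 and 1.73% in treated shControl libraries. In shRNF113A libraries it had 1.25, 2.09 and 1.60% untreated and 4.82, 4.94 and 4.82% treated, an interaction of 1.86 ± 0.42 (adjusted p = 0.0233). TUBB had 0.107, 0.0983 and 0.0825% and 0.119, 0.163 and 0.166% in the shControl libraries, and an interaction of 1.06 ± 0.25 (adjusted p = 0.0264). In both genes the treated shRNF113A libraries stood above all others. Neither call held with intronic counts scaled on their own (adjusted p = 0.0618 and 0.237), where 0 compact genes were called higher and 8 (2.09%) lower. The count of 2 ran to 59 without replicate 3 of Cisplatin-treated shControl, where 48.5% of all genes were called in either direction. It was 21, 19 higher and 2 lower, with a replicate block within each shRNA, against 20.6% of all genes called in either direction in that fit.

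Compact genes were compared with classes of longer total intron. Without Cisplatin, 34.2% of compact genes, 42.2% of genes with up to 10000 nt, 33.0% of those with up to 50000 nt and 20.5% of longer genes rose upon depletion. Under Cisplatin the shares were 66.3, 83.7, 87.0 and 82.8%. With Cisplatin in shControl cells 7.31, 8.17, 12.7 and 30.4% rose, and in shRNF113A cells 35.2, 51.4, 65.7 and 78.7%. In both Cisplatin comparisons the shares went up with intron length. The differences between classes were not tested.

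**Figure D3:**
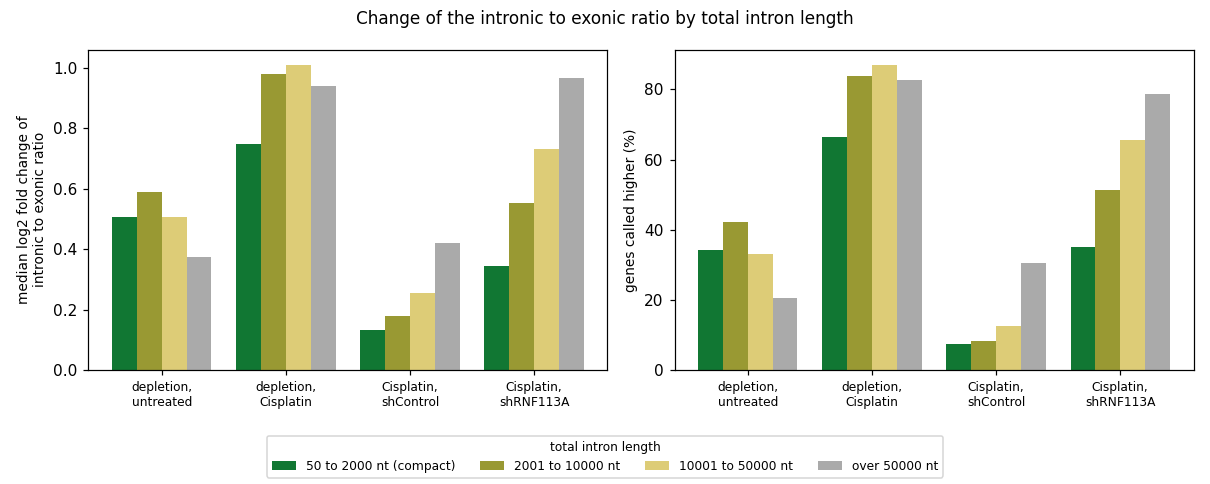
Median log2 change of the intronic to exonic ratio and percent of tested genes called higher, by class of total intron length, for the 4 comparisons. Compact genes are the lowest class in the comparisons of Cisplatin with untreated cells, at 7.31 and 35.2% higher, and are not the lowest upon depletion without Cisplatin.

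Compact genes also had fewer intronic reads, with a median of 60.3 per gene and library against 123 over all genes tested. Classes of equal read number were therefore set side by side. Among genes with 30 to 100 intronic reads, 34.1% of 138 compact and 24.1% of 3124 other genes rose upon depletion without Cisplatin, and 68.1 and 84.3% with it. In that class Cisplatin raised 7.25 and 21.6% in shControl cells, and 35.5 and 70.4% in shRNF113A cells. Among genes with at least 300 intronic reads, 51.4% of 35 compact and 40.0% of 2053 other genes rose upon depletion without Cisplatin, and 68.6 and 85.2% with it. Upon depletion compact genes thus had the larger share without Cisplatin and the smaller share with it in these classes of reads. With Cisplatin in shControl cells 17.1% of compact and 15.9% of other genes with at least 300 reads rose, the reverse of the order in the classes with fewer reads. In the 10 to 30 read class, Cisplatin in shRNF113A cells raised 23.7% of compact and 54.1% of other genes.

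Within the compact genes, the share that rose upon depletion under Cisplatin went from 50% of the 34 with the least intron through 59.6 and 69.1% to 73.8% of the 122 with the most. Median intronic reads rose over the same classes from 37.0 through 46.4 and 59.5 to 79.0, and their part in this order was not tested. By number of gaps the shares were 47.6, 66.7, 70.0 and 76.4%, with 30.3, 49.6, 84.0 and 98.9 reads. Under Cisplatin 68.1% of genes overlapped by another gene rose upon depletion and 65.3% of those without overlap, and without Cisplatin 26.1 and 38.8%. The gaps of genes that rose had a median length of 194 nt and GC of 58.3% under Cisplatin, against 205 nt and 60.5% for genes not called.

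Genes grouped by what they encode were described by counts and medians. Over all genes tested, depletion raised 29.8% without and 84.1% with Cisplatin, and Cisplatin raised 18.4% in shControl and 67.1% in shRNF113A cells, so that counts such as 4 of 4 or 5 of 6 upon depletion under Cisplatin are near the share of all genes. Of 86 cytosolic ribosomal protein genes in the annotation 16 were compact and 14 tested. Depletion raised 9 of the 14 without Cisplatin (median log2 change 0.56) and raised 8 and lowered 1 with it (0.50). With intronic counts scaled on their own the medians were 0.08, with 2 higher and 1 lower, and −0.50, with 0 higher and 8 lower. Cisplatin raised 3 in shControl and 6 in shRNF113A cells, the latter with a median of 0.33 that became −0.42 under their own scaling. Reads of this family may be split among near-identical copies.

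Of the compact mitochondrial ribosomal protein genes 9 were tested, and depletion raised 2 without and 6 with Cisplatin (median 0.62, or −0.36 with own scaling, which also gave −0.02 without Cisplatin). Of 9 respiratory chain genes, depletion raised 4 without Cisplatin (median 0.59, or 0.11 with own scaling, with 0 higher and ATP5E lower) and 6 with it (0.56, or −0.42 with own scaling, with CYC1 and CYCS higher and ATP5E and UQCRQ lower). Of 4 proteasome genes it raised 2 and 4 (0.78 with Cisplatin, or −0.21 with own scaling, which also gave −0.08 without Cisplatin). Both tested spliceosome genes, SRSF6 and RBM8A, were raised at either level of Cisplatin, with medians of 1.01 and 1.09, or 0.52 and 0.10 with own scaling.

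Of 15 tested genes for short-lived mRNAs, depletion raised 5 without Cisplatin (median 0.66, or 0.21 with own scaling, with 2 higher and 1 lower) and 12 with it (1.21, or 0.16 with own scaling, with 5 higher and 2 lower). Cisplatin in shControl cells lowered 3 of them and raised 0 (median −0.33, or −0.61 with own scaling, with 6 lower), and in shRNF113A cells raised 1 and lowered 3 (0.05, or −0.70 with own scaling, with 11 lower). Of 6 stress response genes, 5 rose upon depletion under Cisplatin (median 1.11, or 0.12 with own scaling) and 0 without it (0.32, or −0.17 with own scaling). Of 4 chemokine genes, 1 rose without and 3 with Cisplatin (0.97, or 0.01 with own scaling). Of the 3 p53 targets, 1 rose without and 2 rose with Cisplatin (median 0.94, or −0.046 with own scaling). Both tested metallothionein genes, of a family that binds zinc and copper, rose upon depletion under Cisplatin, MT2A with a change that became −0.05 with own scaling. None of the 20 compact HOX genes and neither compact claudin passed the filters on the ratio.

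Retained introns gave a second readout of the same libraries. An event sets the form with the intron against the form spliced at the same sites, and its level is the share of the former. It came from reads at the intron's edges, reads inside it and reads over the spliced junction. The order of the 3 libraries of a condition is unnamed in these data, so they are given as listed. Without Cisplatin 298 events in 158 compact genes were tested. Of these 46 (15.4%) rose upon depletion at an adjusted p under 0.05, against 13.8% of all 4059 events, and 1 also by at least 20 points, against 0.788%. Under Cisplatin 70 of 308 events (22.7%) rose and 4 fell, against 21.4% higher of all events, and 5 rose by at least 20 points, against 2% of all events. The median level over events of compact genes went from 17.2 to 20.5% without and from 17.8 to 25.3% with Cisplatin.

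The introns that passed both limits are shown whole where they are under 300 nt, with their terminal bases in capitals. Their GC content ran from 61.3 to 75.3%.
IRF7, 85 nt: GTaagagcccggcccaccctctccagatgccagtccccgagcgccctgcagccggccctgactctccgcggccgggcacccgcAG
RFNG, 75 nt: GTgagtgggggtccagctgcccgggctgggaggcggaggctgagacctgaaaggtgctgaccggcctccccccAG
STUB1, 116 nt: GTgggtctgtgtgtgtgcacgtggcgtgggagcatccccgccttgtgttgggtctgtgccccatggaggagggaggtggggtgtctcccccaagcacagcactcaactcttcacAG
OCEL1, 124 nt: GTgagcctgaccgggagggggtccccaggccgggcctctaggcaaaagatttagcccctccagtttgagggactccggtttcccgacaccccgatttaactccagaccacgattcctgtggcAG

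Without Cisplatin the event was in PHPT1, in the intron of 368 nt. Its levels were 43.2, 39.9 and 45.2% in shControl and 64.0, 62.7 and 62.5% in shRNF113A libraries, 20.3 points apart (adjusted p = 0.0145), and the libraries did not overlap. The call was lost without 1 shControl or either of 2 shRNF113A libraries. Under Cisplatin the same intron had 59.1, 69.2 and 68.6% in shControl and 84.7, 84.6 and 75.6% in shRNF113A libraries, 16 points apart (adjusted p = 0.0162) and under the limit of 20. The ratio of intronic to exonic reads over the whole gene had fallen in that comparison, opposite to this intron.

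Under Cisplatin the intron of IRF7, an interferon regulatory factor (chr11:615260-615344, minus strand), went from 35.1, 27.3 and 26.0% to 66.4, 59.7 and 58.3% (adjusted p = 0.0107), with as few as 24 reads in a library. That of STUB1, a co-chaperone ubiquitin ligase (chr16:731904-732019, plus strand), went from 54.0, 67.5 and 70.2% to 89.9, 89.8 and 84.7% (adjusted p = 0.00267). In both, depleted libraries lay above all controls. A second STUB1 event has the same acceptor and a donor further upstream (chr16:731881-732019). Its mean went from 5.51 to 14.2% (adjusted p = 0.000433), 8.67 points apart and under the limit. It had at least 363 reads in every library, against 65 for the first. The level of the first is thus not the share of all STUB1 transcripts. RFNG, a glycosyltransferase acting on Notch, had 2 such introns. That of 395 nt (chr17:80007883-80008277, minus strand) went from 25.3, 24.7 and 36.7% to 50.5, 52.3 and 50.9% (adjusted p = 0.00129), and that of 75 nt (chr17:80007719-80007793, minus strand) from 17.8, 11.3 and 25.4% to 39.7, 41.8 and 36.0% (adjusted p = 0.00108). OCEL1 (chr19:17337679-17337802, plus strand) went from 63.8, 80.9 and 67.3% to 100, 100 and 87.5% (adjusted p = 0.0188), resting on as few as 29 reads. Some of these calls were lost when a library was left out, with 3 to 8 events called, where 1.54% and 3.37% of all events were called.

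With Cisplatin in shControl cells 3 of 300 events (1%) rose and 1 fell at an adjusted p under 0.05, against 0.243% higher of all events. None of these reached 20 points by edgeR, and 27 events had an unadjusted p under 0.05. In shRNF113A cells 41 of 303 (13.5%) rose and 8 fell, against 10.8% higher of all events. The shares of all events that fell are not given here, nor those over 20 points in the comparisons of Cisplatin. The falls and the event over 20 points are therefore not read as particular to compact genes. The 1 event over 20 points was in the phosphatase gene DUSP28, from 28.9 ± 3.80% to 51.4 ± 7.69% (n = 3, adjusted p = 0.013). The intron of that event is longer than the total intron length of DUSP28, since parts of it are exons of other transcripts.

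**Figure D4:**
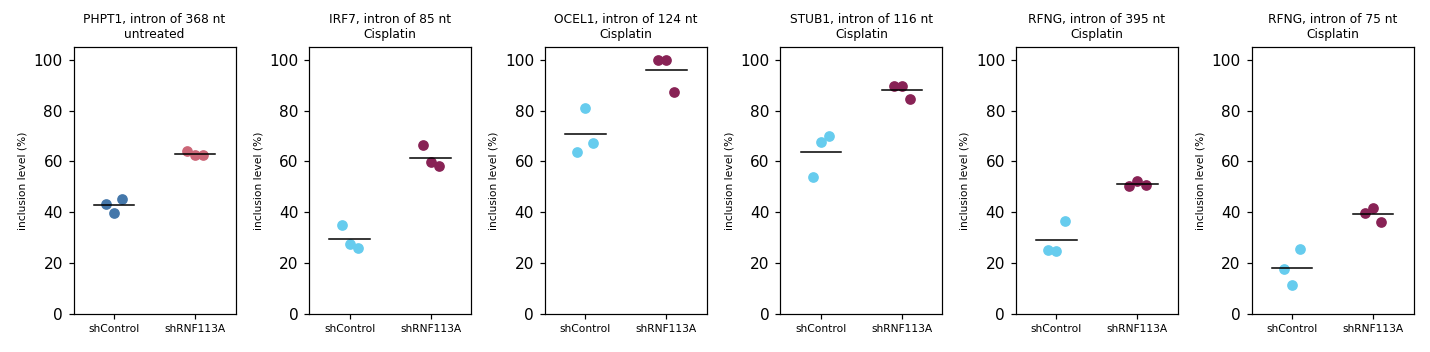
Retained-intron levels in percent for events of compact genes that passed both limits upon depletion, on axes from 0, with 1 point per library and a line at the mean. The shRNF113A libraries lie above the shControl libraries in each depletion event drawn, such as 62.5 to 64.0% against 39.9 to 45.2% in PHPT1.

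Expression was tested for 682 compact genes in a model with both factors. That model takes the 12 libraries as independent. Same-numbered untreated and treated shControl libraries were correlated, as described under the processing, so its p-values for depletion may be too small. In bulk samples a lower count can come from fewer cells expressing a gene or from less RNA per cell, which cannot be told apart. Depletion raised 56 (8.21%) and lowered 21 (3.08%) at least 2-fold, against 5.47% and 5.52% of all 15352 genes. The median log2 change was 0.15 against 0.00 over all genes. In genes with over 50000 nt of intron 2.86% rose and 9.13% fell, and in intronless genes 12% and 4.79%.

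FGFBP1, which releases fibroblast growth factors from the matrix, had 4.53, 5.07 and 4.03 CPM in untreated shControl and 30.8, 33.0 and 39.5 in untreated shRNF113A libraries. With Cisplatin it had 3.71, 3.58 and 3.53 against 15.1, 14.8 and 13.8 CPM. It was higher in all depleted libraries, by 2.48 ± 0.16 (adjusted p = 1.5e-07). CITED2, a transcriptional co-regulator, had 9.73, 13.1 and 8.33 against 21.8, 27.1 and 24 CPM untreated and 17.9, 26.7 and 17.3 against 49.4, 53.2 and 56.7 CPM with Cisplatin. It rose by 1.30 ± 0.13 (adjusted p = 6.91e-06) without overlap within either treatment. FOS (2.13 ± 0.35, adjusted p = 3e-04), the protease inhibitor SLPI (1.88 ± 0.23, adjusted p = 4.02e-05), the GTPase RHOV (1.68 ± 0.33, adjusted p = 0.00128) and DUSP6 (1.18 ± 0.15, adjusted p = 5.03e-05) rose too.

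OLFML3, a secreted olfactomedin-like protein, had 93.3, 13.7 and 97.2 CPM in untreated and 26.4, 3.22 and 26.7 in treated shControl libraries. In shRNF113A libraries it had 2.25, 0.945 and 0.400 untreated and 0.420, 0.371 and 0.299 CPM treated, and it fell by 5.76 on the log2 scale (SE 0.68, adjusted p = 2.52e-05). Replicate 2 was low in both shControl conditions. NUPR1 had 11.8, 13.8 and 13.4 CPM in untreated and 75.7, 75.6 and 71.5 in treated shControl libraries. In shRNF113A libraries it had 4.87, 4.31 and 5.26 untreated and 8.04, 8.38 and 7.26 CPM treated. NUPR1 thus fell upon depletion (−2.37 ± 0.27, adjusted p = 2.07e-05) and rose with Cisplatin (1.69 ± 0.27, adjusted p = 7.88e-05), with less of a rise in depleted cells (interaction −1.80 ± 0.14, adjusted p = 0.000258). The serotonin receptor gene HTR1D (−1.48 ± 0.15, adjusted p = 7.52e-06) and the forkhead factor FOXA2 (−1.07 ± 0.18, adjusted p = 0.000309) fell, the latter by under 2-fold when any of 3 libraries was left out.

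MCL1, had 158 to 187 CPM in untreated shControl and 227 to 233 in untreated shRNF113A libraries, a depletion change of 0.37 ± 0.06 that was under the 2-fold limit (adjusted p = 0.000157). Among compact groups, 4 of 21 short-lived genes tested rose upon depletion, namely DUSP6, EGR3, FOS and FOSB, against 5.47% of all genes. Of 3 tested S100 genes, S100A14 rose (3.97, adjusted p = 3.91e-06) and S100A3 fell (−1.26, adjusted p = 0.00129). Of 15 tested HOX genes, which encode homeobox factors of body patterning, HOXB5 rose and HOXD13 fell upon depletion, and Cisplatin raised 5, namely HOXA11, HOXB13, HOXC5, HOXD1 and HOXD13, against 10.3% of all genes.

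Cisplatin raised 120 of the 682 compact genes (17.6%) and lowered 17 (2.49%), against 10.3% and 11.2% of all genes. The median log2 change was 0.19 against 0.03. Genes of the next class, with up to 10000 nt of intron, had 17.0% and 2.40%, intronless genes 17.5% and 6.16%, and genes with over 50000 nt of intron 3.72% and 26.1%. Raising the filter to 10 counts in every library left 78 compact genes called for Cisplatin and 35 for depletion.

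BTG2, an antiproliferative p53 target, had 11.9, 9.17 and 13.9 CPM in untreated and 268, 204 and 279 in treated shControl libraries, and 17.5, 17.9 and 18.0 against 236, 225 and 243 CPM in shRNF113A libraries. It rose by 4.07 ± 0.15 (adjusted p = 1.14e-10). GADD45A, a growth arrest and DNA damage gene, had 12.3, 14.0 and 12.2 against 143, 246 and 155 CPM, and 17.6, 19.6 and 18.8 against 131, 119 and 150 CPM. It rose by 3.33 ± 0.20 (adjusted p = 6.57e-09), and treated and untreated libraries of both genes stood far apart. YPEL3 (3.44 ± 0.14, adjusted p = 2.68e-10), the interferon-induced ISG15 (3.05 ± 0.20, adjusted p = 1.94e-08), FOSB (2.99, adjusted p = 0.000728) and the homeobox gene NKX2-5 (2.87 ± 0.15, adjusted p = 2.33e-09) rose as well. TRIAP1, a p53-regulated survival factor, rose by 1.72 ± 0.07 (adjusted p = 1.93e-10).

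SAT1 had 175, 286 and 172 CPM in untreated and 473, 782 and 563 in treated shControl libraries, and 185, 165 and 166 against 486, 457 and 596 CPM in shRNF113A libraries. It rose by 1.55 ± 0.15 (adjusted p = 5.87e-07) with no overlap. PAQR4, a membrane receptor family gene, had 48.6, 41.8 and 49.5 against 10.9, 11.8 and 10.1 CPM in shControl and 37.7, 42.3 and 39.7 against 14.2, 14.6 and 14.6 CPM in shRNF113A libraries. It fell by 1.78 on the log2 scale (SE 0.11, adjusted p = 1.22e-08). TUBB fell by 1.19 (SE 0.08, adjusted p = 1.89e-08), from between 2280 and 2950 CPM in untreated to between 984 and 1340 in treated libraries. CAMK2N1 (−1.47 ± 0.22, adjusted p = 3.98e-05), PSRC1 (−1.20, adjusted p = 3.8e-07), CASC10 (−1.19, adjusted p = 3.61e-07) and the actin-binding TMSB4X (−1.09 ± 0.11, adjusted p = 1.03e-06) fell too.

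The Cisplatin change of expression differed between depleted and control cells in 12 compact genes, 10 with a larger change in depleted cells (1.47%) and 2 with a smaller one (0.293%), against 0.769% and 0.508% of all genes. C11orf68 had 23.8, 20.0 and 25.8 against 48.4, 38.2 and 45.3 CPM in shControl and 20.1, 21.5 and 21.0 against 76.3, 65.1 and 99.6 CPM in shRNF113A libraries (interaction 1.02 ± 0.21, adjusted p = 0.022). The number of such genes ran from 3 without replicate 1 of untreated shRNF113A to 19 without replicate 2 of untreated shControl. Of all genes, 0.48% and 2.7% were called in these fits. The number was 29, 22 with a larger and 7 with a smaller change, with a replicate block within each shRNA, where C11orf68 was just under the 2-fold limit.

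**Figure D5:**
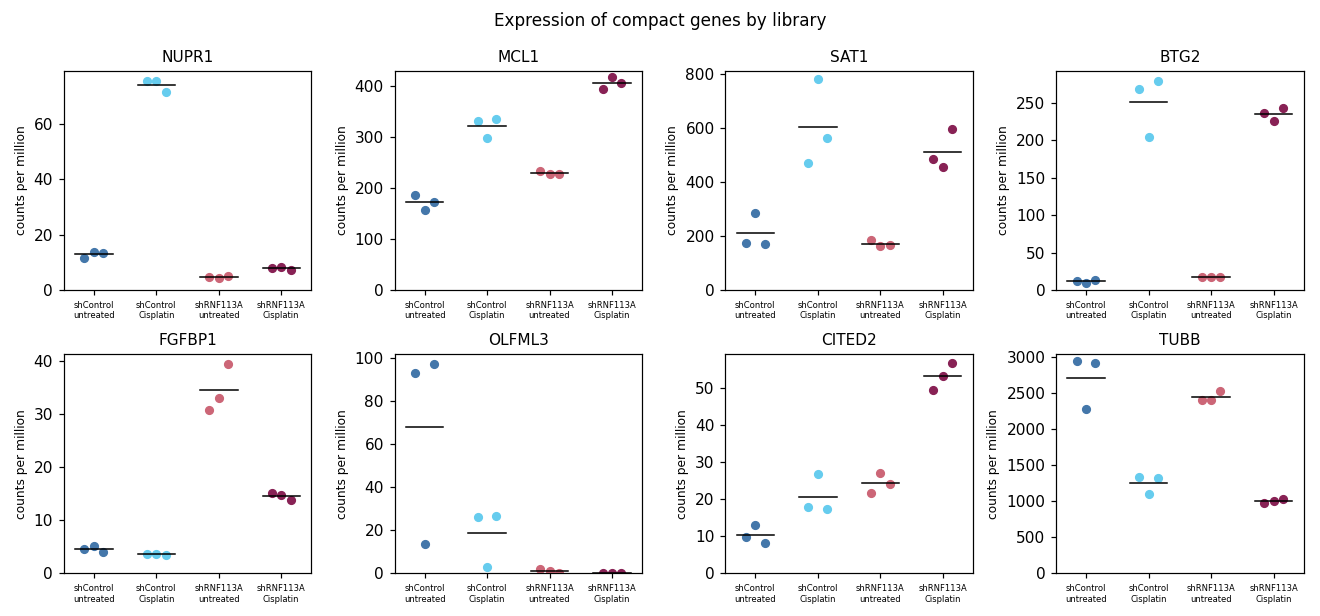
Expression in CPM of 8 named compact genes in each of the 12 libraries, each panel on its own linear axis from 0, with 1 point per library and a line at the mean of the condition. NUPR1 reaches 71.5 to 75.7 CPM in Cisplatin-treated shControl libraries and 7.26 to 8.38 in Cisplatin-treated shRNF113A libraries, whereas BTG2 reaches at least 204 CPM in both.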

How the data were processed

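The 12 libraries were made from polyadenylated RNA with a strand-specific kit and sequenced in pairs. The authors mapped reads to hg19 with STAR 2.5.2b after taking out mitochondrial, ribosomal and transfer RNA reads, and deposited raw counts per gene, counts over exons and over whole genes (HTSeq, strict intersection, Gencode v19 protein-coding genes), and read counts at retained introns (rMATS). Only read columns of the last were used, and the authors' own p-values and level differences were not. Other splicing tables and the merged annotation were not used. Counts on the gene's strand were taken from the column that tracked the genic counts (r at least 0.951, against at most 0.556 for the other strand).

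Tests were edgeR 4.0.16 quasi-likelihood fits in R 4.3.3 on all genes, with Benjamini-Hochberg adjustment over all genes tested. Intronic against exonic counts had a term for each library, an intronic term for each condition and no scaling between both kinds of count. Genes needed at least 1 genic read and no fewer genic than exonic reads in every library, and a mean of at least 10 intronic and 10 exonic reads. A ratio was called at an adjusted p under 0.05, expression also needed a fold of at least 2 (TMM, a model of drug plus depletion, as in the study, which used DESeq2), and retained introns a difference of at least 20 points. p-values measure the spread between replicates. Each test was checked on simulated data with 100 genes or events changed 2-fold and 100 changed 4-fold. Recovery needed an adjusted p under 0.05 and the right direction, without the limits on fold or points. It was 58% of 2-fold and 91% of 4-fold changes of the ratio upon depletion over 10975 genes. For expression it was 86% and 96% over 15352 genes, and for retained introns 24% and 52% over 4059 events. Changes went in either direction, with no shift common to all genes and no difference in intronic share between libraries of a condition. Retained introns had no spread beyond sampling. The data have such shifts and spread, so recovery of the calls reported here was not measured.

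Genes named in the text are compact genes that the study names, the largest changes of each comparison (8 rises and 4 falls of the ratio, 6 and 6 of expression) among called genes whose libraries do not overlap, with at least 20 intronic and 100 exonic reads or 10 CPM, members of fixed gene lists, and the called retained introns. Genes named for a comparison are at times described in others, where they need not meet these limits. The rule for compact genes, the lists and the comparisons were chosen with earlier results of these data known. Alternatives were DESeq2 1.42.0, other filters and scalings, a replicate block, and each library left out. Deviations of log2 CPM from the group means over 9779 genes correlated between same-numbered untreated and Cisplatin-treated libraries at 0.635, 0.733 and 0.479 in shControl cells, so the numbers pair these libraries, and at 0.411, −0.0725 and 0.295 in shRNF113A cells. Between shControl and shRNF113A libraries they correlated at −0.204 to 0.138, so the numbers were not taken to pair those. For the log2 ratio, same-numbered untreated and treated libraries correlated at 0.0574, 0.27 and 0.0763 in shControl cells. In shRNF113A cells these values were 0.059, 0.00351 and 0.0241. Because of the correlations in expression, a replicate block within each shRNA was added after the data were seen. It was used for the comparisons of Cisplatin in expression and in the ratio. Depletion differs only between such blocks, so its test of expression could not include them and leaves the pairing out.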

Additional observations from a re-analysis of the deposited data

Results flagged for a closer look

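The change with Cisplatin differed between shRNF113A and shControl cells, by a test of the interaction (edgeR, Benjamini-Hochberg), in the following compact genes. Of the intronic to exonic ratio, the log2 interaction was 1.86 for DDAH2 (adjusted p = 0.0233) and 1.06 for TUBB (adjusted p = 0.0264). Of expression, it was −1.80 for NUPR1 (adjusted p = 0.000258) and −1.0 for ADM2, which lay at the limit (adjusted p = 0.05). It was positive for CXCR4 (2.14, adjusted p = 0.00931), FOXH1 (2.10, adjusted p = 0.0134), NUDT17 (1.39, adjusted p = 0.0156), C11orf68 (1.02, adjusted p = 0.022), HOXB5 (1.23, adjusted p = 0.022) and NKX2-1 (2.15, adjusted p = 0.0251). It was also positive for AMH (1.28, adjusted p = 0.0305), C8G (2.2, adjusted p = 0.0318), DDN (2.64, adjusted p = 0.0339) and AGER (1.18, adjusted p = 0.0461).

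Several of these rest on low levels. The means of DDN, a postsynaptic protein, were 0.299 and 0.483 CPM in untreated and treated shControl and 0.471 and 4.82 CPM in untreated and treated shRNF113A cells. NKX2-1, a lung lineage factor, had at most 0.617 CPM in any library when scaled to the library total.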

How the results depend on the processing

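Scaling intronic and exonic counts by TMM on their own left 27 compact genes called upon depletion without Cisplatin, 118 under Cisplatin, 63 for Cisplatin in shControl and 8, all lower, for the interaction. Log2 changes turned negative upon depletion without Cisplatin for NUPR1 (−0.38) and RPL8 (−0.088). Under Cisplatin they did so for SAT1 (−0.80), RPS2 (−0.087), RPL8 (−0.52), RPS16 (−0.066), RPL7A (−0.48), MRPS12 (−0.36), MRPS7 (−0.13), MRPL28 (−0.22), PSMB4 (−0.27), PSME1 (−0.25), PSMG3 (−0.16), MT2A (−0.048), ID3 (−0.20), DUSP1 (−0.047), BTG2 (−0.046), DDIT4 (−0.22) and SRSF6 (−0.076). With Cisplatin in shControl cells MCL1 turned to −0.16. In shRNF113A cells NUPR1 (−0.20), MCL1 (−0.70), RPS2 (−0.39), RPL7A (−0.35), PSMB4 (−0.36), PSMB6 (−0.13), PSME1 (−0.045), PSMG3 (−0.11), TRIAP1 (−0.18), ATF4 (−0.13), GADD45B (−0.091) and RBM8A (−0.075) turned negative. The cause was not tested beyond the shift of the median of all genes.

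Without genes that overlap another, fewer genes were counted, and 161 rose or fell upon depletion under Cisplatin, 25 with Cisplatin in shControl and 1 for the interaction. A minimum of 10 reads in every library gave 1 for the interaction of the ratio, and 10 counts in every library gave 35 genes for depletion and 78 for Cisplatin in expression, with fewer genes tested. Retained introns called at a limit of 10 points numbered 4 upon depletion without and 20 with Cisplatin, and 11 with Cisplatin in shRNF113A cells. Without a limit they numbered 46, 74, 4 and 49 in the order depletion without and with Cisplatin, Cisplatin in shControl and in shRNF113A cells.

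With a library left out, the ratio counts ran from 27 to 193 upon depletion without Cisplatin, 218 to 283 with it, 22 to 80 and 101 to 174 with Cisplatin in shControl and shRNF113A cells, and 0 to 59 for the interaction. The share of all genes called moved as well, such as to 3.81% where 27 compact genes were called and 48.5% where 59 were. Expression counts ran from 71 to 88 for depletion, 131 to 150 for Cisplatin and 3 to 19 for the interaction. Retained introns ran from 0 to 2, 3 to 8, 0 to 2 and 0 to 3. Small log2 changes that had not passed the test crossed 0 in such fits. MCL1 ran from −0.29 to 0.35 with Cisplatin in shControl and −0.037 to 0.19 in shRNF113A cells, and −0.30 to 0.33 for the interaction. NUPR1 ran from −0.70 to 0.77 upon depletion without Cisplatin and −0.46 to 1.34 with Cisplatin in shRNF113A cells. SAT1 ran from −0.024 to 0.39 upon depletion under Cisplatin and, in expression, −0.23 to 0.24 for the interaction.

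With a replicate block the ratio counts were 130, 255, 40, 146 and 2, and those of expression 81 for depletion, 138 for Cisplatin and 12 for the interaction. The block ended the calls of RPL8 upon depletion without Cisplatin (adjusted p = 0.0605) and of RPS2 and PSMB4 with Cisplatin in shRNF113A cells (adjusted p = 0.0604 and 0.0585). With a replicate block within each shRNA, added after seeing the data, the ratio counts were 60 and 168 with Cisplatin in shControl and shRNF113A cells and 21 for the interaction, and those of expression 139 for Cisplatin and 29 for the interaction, and SAT1 passed the test of the ratio with Cisplatin in shControl cells (−0.40). No paired analysis was possible for retained introns because their libraries carry no numbers. DESeq2 called 98, 232, 31, 126 and 3 ratios. Leaving out genes with non-exonic stretches outside their exons, chosen after seeing the data, left 107, 215, 32, 125 and 2. Depth limited the ratio of 257 compact genes that averaged under 10 reads.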
